A study of Mus musculus with 281 samples.

Results

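The genes described here code for the beta subunits Atp1b1, Atp1b2 and Atp1b3 of the sodium pump (Na+/K+-ATPase) and for the pump regulators Fxyd1, Fxyd2, Fxyd6 and Fxyd7. These 7 genes were taken by name from the 47752 genes of the deposited gene table, all 7 were found there, and the rule itself used no measured level. Their levels are given in CPM, a gene's estimated counts scaled to a fixed total in every cell. The question was which beta and FXYD subunits stood together in each cell type of the stria vascularis and in each Slc26a4 genotype.

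A working sodium pump pairs a catalytic alpha subunit, which splits ATP and carries the ions, with a beta subunit, a glycoprotein that brings the alpha subunit to the membrane and tunes its affinity for potassium. Small FXYD proteins bind this pair and adjust its kinetics in a tissue-specific way. In the stria vascularis, the epithelium of the cochlear lateral wall that makes the potassium-rich endolymph, pumps of the marginal cells take up potassium from the space between the cell layers for secretion, and intermediate cells supply potassium to that space.

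Single cells were picked with a micropipette from the stria vascularis of male mice on the 129S6 background and profiled with Smart-Seq2, a full-length method with 1 library per cell. Most cells came from Slc26a4+/+ mice aged P22 to P42, 40 cells from Slc26a4+/- mice aged P26 to P33 and 69 cells from Slc26a4-/- mice aged P24 to P44, where P is the postnatal day. Slc26a4 codes for the anion exchanger pendrin. The labels give no allele beyond these symbols, no treatment and no other modified gene, and the genotypes shared strain, tissue and method. The count of Slc26a4 itself did not settle the genotype labels. RC-like cells averaged 1050.4 CPM in Slc26a4+/+ and 1222 CPM in Slc26a4-/- mice, whereas SC-like cells averaged 912 and 174.05 CPM. Why Slc26a4 RNA was counted in Slc26a4-/- cells was not tested. No mouse is named, so each genotype was 1 sample, cells were not treated as replicates, and levels by cell type and genotype are descriptions unless a test over collections is named. A collection here holds the cells that shared run date, collection number, age and genotype. There were 37 collections on 4 run dates, and a collection may hold less or more than 1 mouse, so that p-values over collections measure only the spread between collections.

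Cells held between 1848 and 7932729 estimated counts (median 1312950), and all 20 cells under 100000 counts were Slc26a4+/+. Clusters were formed without the pump genes and named from marker genes. They gave 88 intermediate cell-like (IMC-like), 34 spindle cell-like (SC-like), 35 root cell-like (RC-like) and 21 marginal cell-like (MC-like) cells, of which 40, 23, 16 and 14 were Slc26a4+/+. In Slc26a4+/+ cells the summed markers of a type reached medians of 45987 CPM for IMC, 42434 CPM for SC, 12284 CPM for RC and 46454 CPM for MC in the cells so named. The IMC marker Tyrp1 was at 0 in every Slc26a4+/+ IMC-like cell. The remaining cells lay in a cluster of 86 and in a cluster of 17 led by Crhbp, Slc26a7 and Vmo1, and stayed unnamed. The cluster of 86 was led by genes of blood cell precursors such as Slc4a1 and Camp, but 13 of its cells had over 1000 CPM of erythroid and 4 of neutrophil markers, while 65 had over 1000 CPM of IMC markers and 74.4% had IMC as their highest score, under the 80% needed for a name. Among the leading genes of this cluster were 6 neutrophil markers and 0 IMC markers, which also barred the name. Names rebuilt in this way can differ from those of the study.

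The FXYD proteins are named for a short run of residues next to the membrane-spanning helix, in which a proline and a phenylalanine are followed by any residue, a tyrosine and an aspartate. The codons for this run are printed because they are what the 4 regulators share while their levels by cell type differ. They were read from the coding sequences of GENCODE M21 on GRCm38, 5′ to 3′, with the signature codons in capitals and 6 bases on either side in lower case.
Fxyd1: ccggatCCATTCACCTACGATtaccac
Fxyd2: gagaatCCCTTCGAGTACGACtatgaa
Fxyd6: aaggatCCTTTCTATTACGACtaccag
Fxyd7: acagatCCTTTTTTCTATGACtatgcc
Fxyd3: aatgatCCTTTCTACTATGATtggtac

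Fxyd3, which is no member but carried much of the FXYD signal of IMC-like cells, is printed for comparison. The stretches lie at chr7:31053473-31053905 (Fxyd1, codons 28 to 32), chr9:45408132-45408301 (Fxyd2, codons 16 to 20), chr9:45390660-45390778 (Fxyd6, codons 28 to 32), chr7:31045026-31047385 (Fxyd7, codons 17 to 21) and chr7:31071365-31072087 (Fxyd3, codons 29 to 33). Fxyd2 and Fxyd6 are on the plus strand and the others on the minus strand. Each stretch crosses an exon junction, so that these positions span an intron. The 15 signature bases of 2 of the members were identical at 9 to 12 positions, with 12 for Fxyd2 and Fxyd6 and 9 for Fxyd7 against Fxyd1 or Fxyd2. Most of this identity was fixed in advance, since every stretch had to code for the same named residues. Searched in frame on the coding strand, the signature codons were present in 33 of 21877 protein-coding genes (0.151%), namely all 7 FXYD genes and 26 others, and a match describes the sequence only.

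The FXYD genes form 2 groups in the genome. Fxyd7 (chr7:31042513-31051467) and Fxyd1 (chr7:31051678-31057199) are neighbours on the minus strand, flanked by Fxyd5 and Fxyd3. Fxyd6 (chr9:45370185-45396159) and Fxyd2 (chr9:45399669-45410278) follow each other on the plus strand. The beta subunit genes lie apart, Atp1b1 at chr1:164437109-164458355, Atp1b2 at chr11:69599736-69605942 and Atp1b3 at chr9:96332655-96364442, all on the minus strand.

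Each named cell type had a leading beta subunit, and it was Atp1b2 for MC-like cells and Atp1b1 for the other 3 types. Atp1b1, the beta subunit found in most epithelia, stood at 12745 CPM ± 4682 (SD over 40 cells) in Slc26a4+/+ IMC-like cells, with a lowest cell at 5218, a median of 11890.3 and a highest cell at 26749.5. It stood at 2512 CPM ± 2196 in 16 RC-like cells (260.5 to 9411, median 2200.1), at 2208 CPM ± 1225 in 23 SC-like cells (200.1 to 4870.1, median 2232) and at 399 CPM ± 391 in 14 MC-like cells (6.35 to 1217, median 310.0). Every IMC-like cell was above every SC-like and MC-like cell, while RC-like and SC-like cells overlapped almost wholly. The IMC-like mean was the higher one in 8 of 8 collections that also held RC-like cells, in 10 of 10 with SC-like and in 5 of 5 with MC-like cells. RC-like and SC-like cells, neighbours in this order, differed by 0.19 on the log2 scale of mean CPM, less than the spread between cells. By TPM, which corrects for transcript length, Atp1b1 ranked 8 among all genes of IMC-like cells.

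Atp1b2, first described as an adhesion molecule on glia, had the opposite order. MC-like cells held 11475 CPM ± 4435 (3859 to 18030.4, median 11838), SC-like cells 1027 CPM ± 1524 (3.10 to 6108, median 648), RC-like cells 658 CPM ± 1597 (0.686 to 6580.2, median 269.6) and IMC-like cells 175.7 CPM ± 372 (0 to 2171, median 51.5). No IMC-like cell reached the lowest MC-like cell. The MC-like mean was higher in all collections that held both types, 5 of 5 against SC-like, 4 of 4 against RC-like and 5 of 5 against IMC-like cells. SC-like and RC-like cells did not separate from each other.

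In RC-like and in IMC-like cells, the single highest Atp1b2 value stood in the cell richest in markers of MCs. The RC-like cell with 6580.2 CPM of Atp1b2 was also the RC-like cell with the highest sum over the 8 MC markers, 21277 CPM against a median of 348, and without it the RC-like mean was 262.98 CPM. The IMC-like cell with 2171 CPM likewise had the highest MC marker sum of its type, 2243 CPM against a median of 146.8, and the mean without it was 124.6 CPM. In SC-like cells the MC markers were present throughout (1317 to 17989 CPM, median 3944). The 3 SC-like cells highest in Atp1b2 (6108, 4329 and 3206 CPM) ranked 3, 6 and 2 in these markers, and the SC-like mean without the cell highest in them, which held 1495 CPM of Atp1b2, was 1006 CPM. Whether 2 cells were taken up together in these libraries was not tested, and leaving out single cells was chosen after seeing the data.

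Atp1b3, a beta subunit of broad distribution, followed Atp1b1. It reached 3020.4 CPM ± 1169.9 in IMC-like cells (715 to 6487, median 2768), against 402 CPM ± 754 in SC-like (0.310 to 3247, median 204.9), 246.6 CPM in MC-like (2.61 to 1069, median 152.2) and 200.2 CPM ± 250.7 in RC-like cells (1.17 to 812, median 97.1). The IMC-like mean was higher in 10 of 10, 5 of 5 and 8 of 8 collections that held the other type. Of 40 IMC-like cells, 39 were above every MC-like and RC-like cell. The SC-like, MC-like and RC-like levels did not separate, and the SC-like cell with 3247 CPM was also the highest in IMC markers (10281 CPM against a median of 285.1), without which the SC-like mean was 272.9 CPM.

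**Figure D1:**
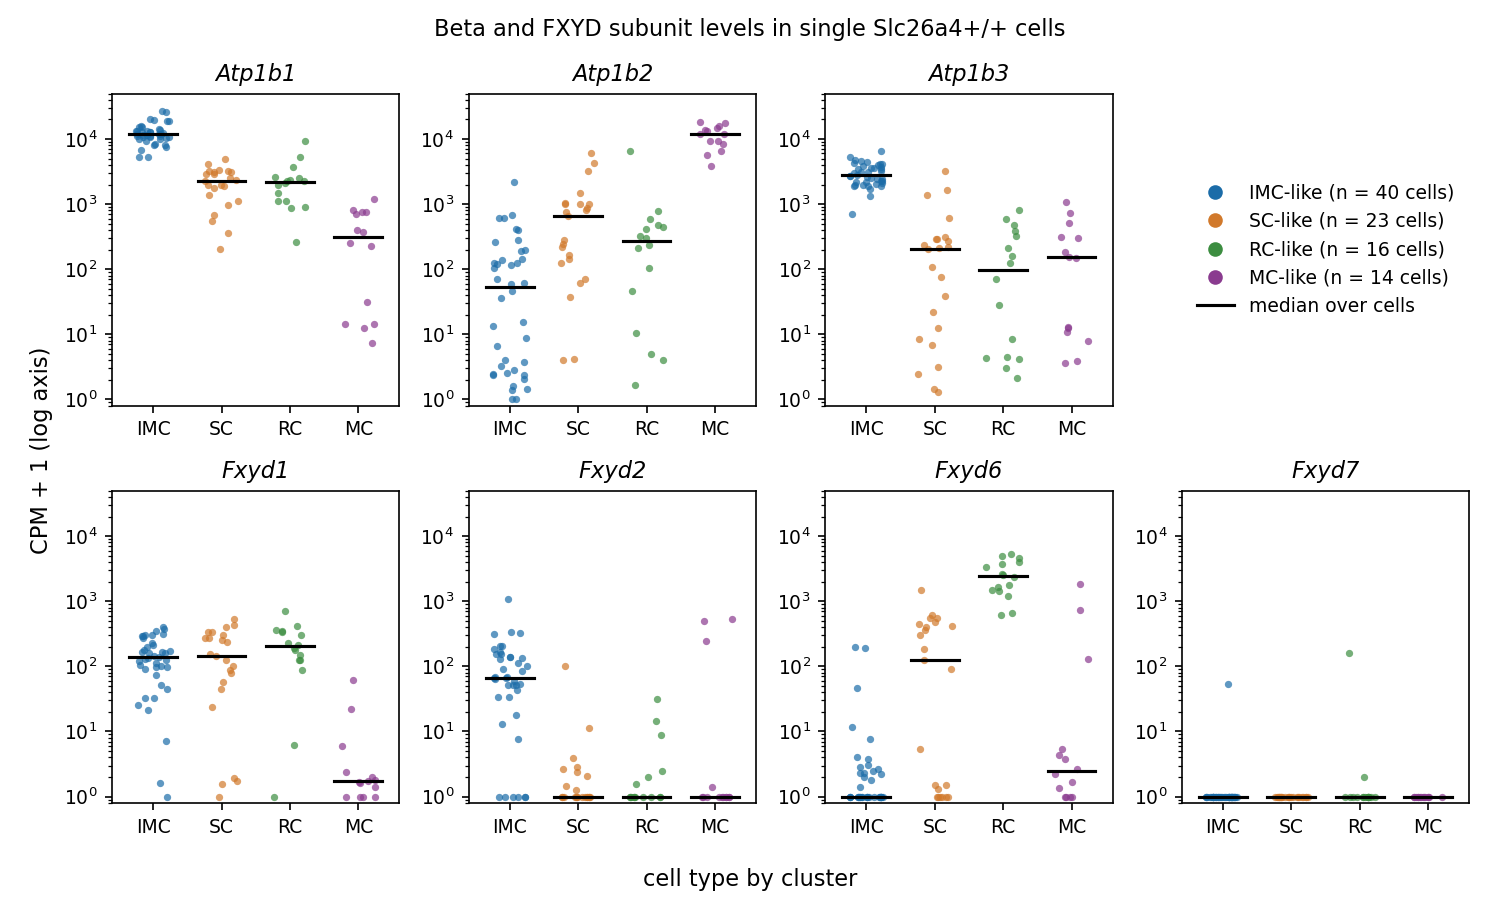
CPM + 1 on a log axis for each of the 7 genes in single Slc26a4+/+ cells, by cell type (IMC, SC, RC and MC stand for the IMC-like, SC-like, RC-like and MC-like clusters). Points are cells and bars are medians over 40, 23, 16 and 14 cells. Atp1b1 and Atp1b3 are highest in IMC-like, Atp1b2 in MC-like and Fxyd6 in RC-like cells, and Fxyd7 is at 0 in nearly all cells.

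Among the FXYD regulators, Fxyd1 was spread over 3 cell types, Fxyd2 was mostly a gene of IMC-like cells, Fxyd6 was highest in RC-like cells and Fxyd7 was rarely detected at this depth. Fxyd1, or phospholemman, is the pump regulator of heart and skeletal muscle. It stood at 233.8 CPM ± 174.4 in RC-like (0 to 698, median 202.3), 182.6 CPM ± 158.5 in SC-like (0 to 541, median 145.4) and 155.1 CPM ± 109.5 in IMC-like cells (0 to 406, median 136.5). These 3 types overlapped and their order differed between collections, with the RC-like mean above the IMC-like mean in 5 of 8. MC-like cells held 6.56 CPM ± 16.3 (0 to 59.9, median 0.712), and only 2 of 14 had 10 or more counts of Fxyd1, against 37 of 40 IMC-like cells. The IMC-like mean exceeded that of MC-like cells in 5 of 5 collections.

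Fxyd2, the gamma subunit known from the kidney tubule, had 10 or more counts in 33 of 40 IMC-like cells. Its level there was 119.5 CPM ± 179.5 (0 to 1081, median 66.3). It had 10 or more counts in 2 of 23 SC-like cells (mean 5.24 CPM) and in 1 of 16 RC-like cells (mean 3.47 CPM). In MC-like cells the mean was 91.1 CPM ± 191.04 with a median of 0 and a highest cell at 528, and 3 of 14 cells had 10 or more counts. The MC-like cell at 528 CPM was the one highest in IMC markers (1614 CPM against a median of 236.9), and the mean without it was 57.5 CPM. The means of IMC-like and MC-like cells did not order the same way across collections (IMC-like higher in 3 of 5).

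Fxyd6, or phosphohippolin, is known from brain and inner ear. All 16 RC-like cells expressed it, at 2649 CPM ± 1530.4 (609 to 5347, median 2430.1), and by TPM it ranked 18 among all genes of these cells. SC-like cells held 262.7 CPM ± 352 (0 to 1513, median 122.2), with 10 or more counts in 12 of 23. IMC-like cells held 11.7 CPM, with a highest cell at 193.95 and 10 or more counts in 4 of 40, so that no IMC-like cell overlapped with an RC-like cell. The RC-like mean was higher in 5 of 5, 4 of 4 and 8 of 8 collections that also held SC-like, MC-like and IMC-like cells.

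MC-like cells had a mean of 192.1 CPM ± 507 of Fxyd6, with a median of 1.45 and a highest cell at 1822. That highest cell was also the MC-like cell highest in RC markers, at 521 CPM against a median of 3.51, and the mean without it was 66.7 CPM. The part of RC transcripts in this level was not tested. Fxyd7, known from brain, was detected in 1 of 40 IMC-like cells (52.5 CPM), in 2 of 16 RC-like cells (highest 161.3 CPM), in 0 of 23 SC-like cells (a share of up to 14.8% by the exact binomial 95% interval) and in 0 of 14 MC-like cells (up to 23.2%). These intervals cover counting error only.

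**Figure D2:**
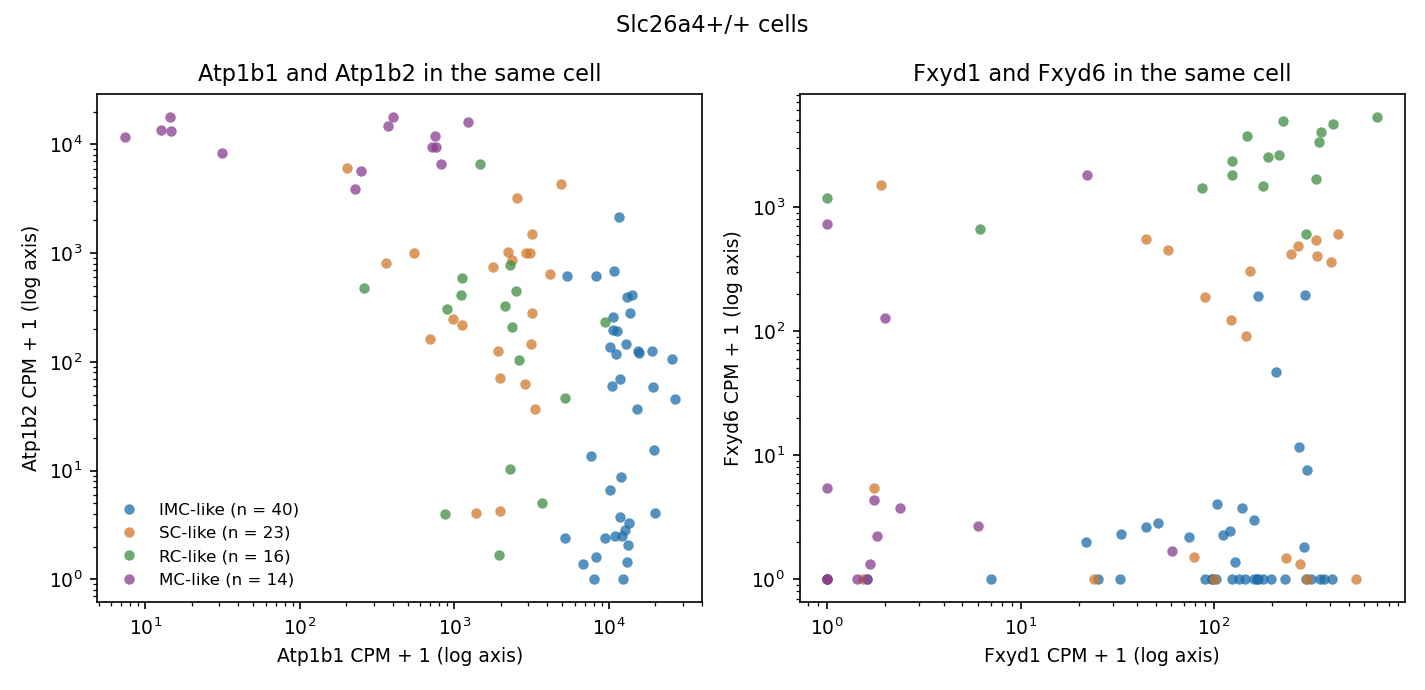
CPM + 1 on log axes in single Slc26a4+/+ cells, Atp1b2 against Atp1b1 on the left and Fxyd6 against Fxyd1 on the right, coloured by cell type (40 IMC-like, 23 SC-like, 16 RC-like, 14 MC-like). MC-like cells lie apart at high Atp1b2 and low Atp1b1, and RC-like cells at high Fxyd6, where 14 of 16 also have 10 or more counts of Fxyd1.

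Shares within a family were taken from TPM, since only levels per length can be compared between genes. In Slc26a4+/+ IMC-like cells Atp1b1 made up 76.8% of the summed beta TPM, Atp1b3 22.1% and Atp1b2 1.09%. In SC-like cells the shares were 59.9% for Atp1b1, 29.5% for Atp1b2 and 10.6% for Atp1b3, and in RC-like cells 72.8%, 20.3% and 6.93%. In MC-like cells Atp1b2 made up 94.9%. The share of Atp1b1 in IMC-like cells ranged from 68.7% to 78.4% between the 4 run dates, so that the order of beta subunits in this type was the same on each.

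Among FXYD transcripts, Fxyd3 had 48.5% of the summed FXYD TPM in IMC-like cells, Fxyd1 32.6% and Fxyd2 17.9%. In SC-like cells Fxyd1 led with 54.8%, followed by Fxyd3 with 27.5% and Fxyd6 with 14.7%. In RC-like cells Fxyd6 had 68.2% and Fxyd1 28.6%. MC-like cells had little FXYD RNA to divide: 9 of 14 had no FXYD gene with 10 or more counts, and their median ratio of FXYD to beta TPM was 0.00340, against 0.227 for IMC-like, 1.37 for RC-like and 0.623 for SC-like cells. Values of Fxyd3 carry a limit of their own, as 41.02% of the 31-base words of its transcripts also occur in the overlapping gene Lgi4. The corresponding shares were 16.9% for Atp1b1 (with Nme7), 16.2% for Atp1b3 (nearly all with Gm1848) and at most 0.0417% for the other members.

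Counted cell by cell, the most frequent leading pair of beta and FXYD genes differed between IMC-like, SC-like and RC-like cells. Atp1b1 with Fxyd3 led in 24 of 40 Slc26a4+/+ IMC-like cells (60%, exact binomial 95% interval 43.3 to 75.1) and Atp1b1 with Fxyd1 in 13. Atp1b1 with Fxyd1 led in 14 of 23 SC-like cells (60.9%, 38.5 to 80.3). Atp1b1 with Fxyd6 led in 12 of 16 RC-like cells (75%, 47.6 to 92.7). In MC-like cells Atp1b2 led in 14 of 14 cells, and 7 of these had fewer than 10 FXYD counts in all. In Slc26a4+/+ IMC-like cells, several FXYD genes were usually present together. Of these 40 cells, 31 had 10 or more counts of at least 3 FXYD genes, and 37 had both Fxyd1 and Fxyd3.

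**Figure D3:**
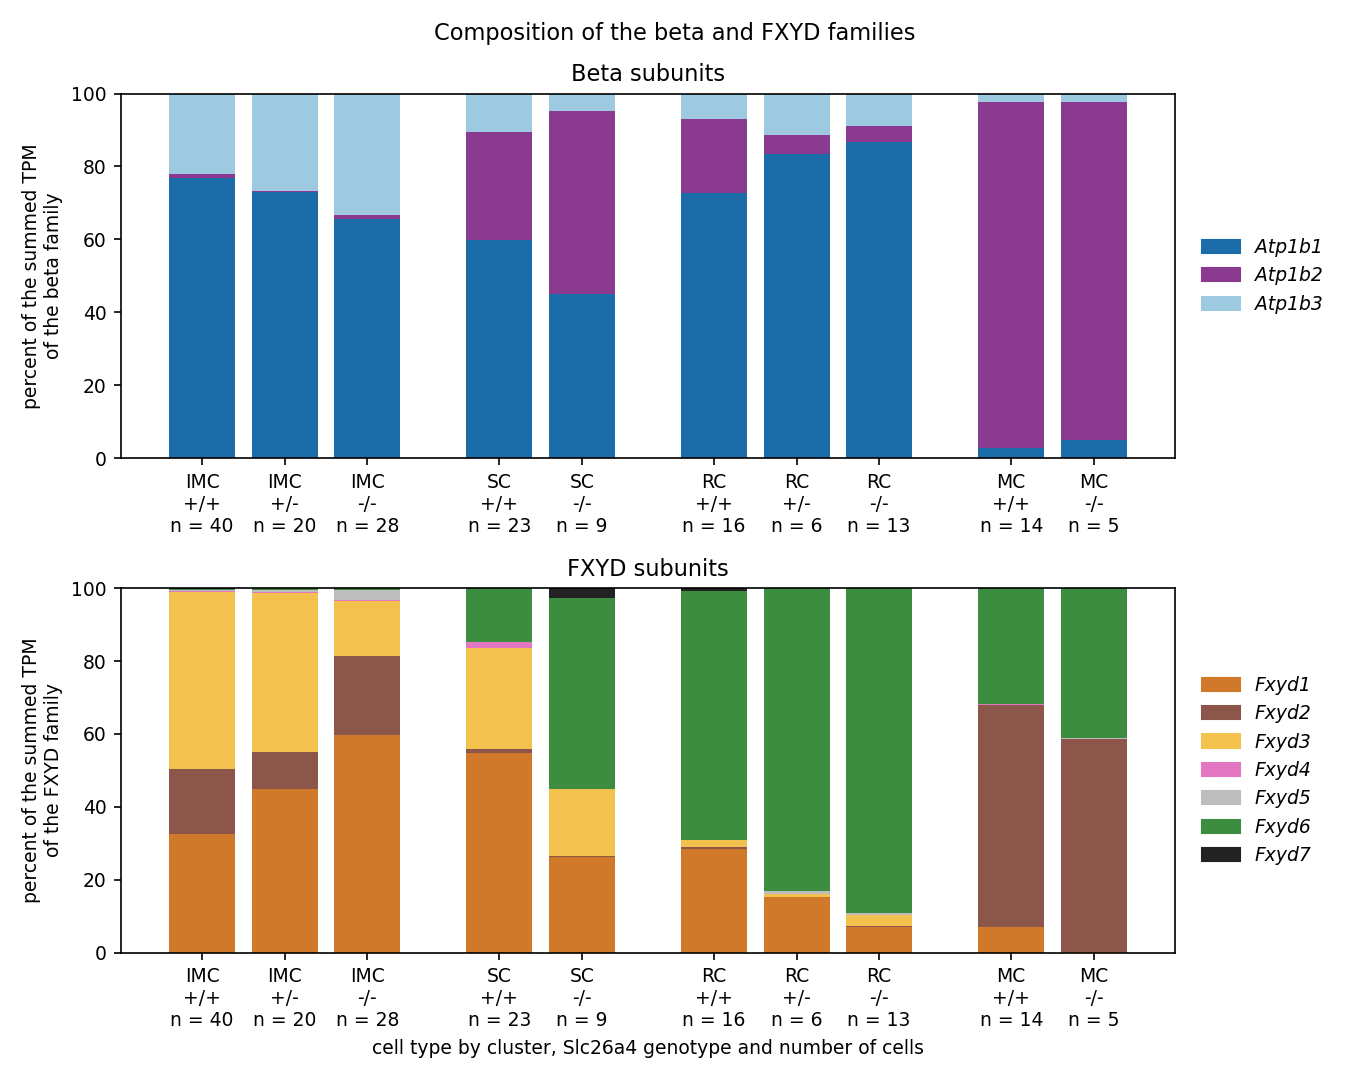
Percent of the summed TPM of the beta family (top) and of the FXYD family (bottom) by cell type and Slc26a4 genotype, for groups of at least 5 cells, with the number of cells under each bar. Atp1b2 makes up 94.9% of beta TPM in Slc26a4+/+ MC-like cells, and Fxyd3 makes up 48.5% of FXYD TPM in Slc26a4+/+ and 14.9% in Slc26a4-/- IMC-like cells. The FXYD bars of MC-like cells rest on few cells with FXYD counts.

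Within a type, some pairs of beta or FXYD genes varied together over cells and others in opposite directions. Over 40 Slc26a4+/+ IMC-like cells, the pairs among Fxyd3 and the members other than Fxyd7 had a Pearson r from -0.18 to 0.26 on log2(CPM + 1). Over 23 SC-like cells the range was -0.50 (Atp1b2 with Fxyd3) to 0.38 (Atp1b2 with Atp1b3). Over 16 RC-like cells it was -0.60 (Atp1b1 with Fxyd2) to 0.56 (Fxyd1 with Fxyd6). Over 14 MC-like cells it was -0.33 (Atp1b2 with Fxyd3) to 0.74 (Atp1b2 with Atp1b3). The lower ends of these last ranges each involve a gene that was hardly counted. Fxyd2 had a mean of 3.47 CPM and a median of 0 over the RC-like cells. Fxyd3 had a mean of 0.255 CPM and a highest value of 2.04 CPM over the MC-like cells. Opposite variation of either pair is therefore not shown. All coefficients given here are descriptions over cells that share collections and differ in depth. Over the 93 Slc26a4+/+ cells of the 4 named types, the genes whose log2(CPM + 1) was most like that of a member, among 7207 genes searched, were named with the measure of likeness. For Atp1b1 they were Met (Pearson r 0.74), Dhrs3 (0.73) and Alpl (0.71). For Atp1b3 they were Ednrb (0.75), Alpl (0.75) and Spon1 (0.74), and for Fxyd2 Alpl (0.70), Ednrb (0.69) and Gsta2 (0.69). For Atp1b2 they were Dnase1 (0.72), Lrp2 (0.72), the endocytic receptor megalin, and Enpep (0.71). For Fxyd6 they were Epyc (0.71), Emb (0.70) and Ces1d (0.69). Fxyd1 had no close counterpart, with Hhatl (0.51), Nebl (0.50) and Apoe (0.49). Met, Ednrb, Dnase1, Lrp2, Epyc and Emb were among the markers that named the clusters.

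The related genes given next were at low levels. The proton pump subunits Atp4a, Atp4b and Atp12a were at 0 in the Slc26a4+/+ cells of the named types, and Atp1b4 was found in 1 of these cells. Fxyd4 averaged at most 3.52 CPM and Fxyd5 at most 2.39 CPM in the Slc26a4+/+ cells of a named type. Of the Nkain genes, whose products bind the beta subunit, the highest mean was that of Nkain2 at 36.5 CPM in Slc26a4+/+ RC-like cells.

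The second question was whether the subunits differed with the loss of Slc26a4. Slc26a4+/- and Slc26a4-/- cells were each compared with the same Slc26a4+/+ cells, so these comparisons share their controls. Run date and genotype were partly confounded, as run date 3 held only Slc26a4+/+ and run date 4 all 40 Slc26a4+/- cells, so values within run dates 2 and 4 are given beside the pooled ones. The test was edgeR's quasi-likelihood test over collections with at least 2 cells of a type, with run date in the fit and Benjamini-Hochberg adjustment over all genes tested.

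In IMC-like cells, 0 of the 7 members passed this test for Slc26a4-/- against Slc26a4+/+ (7 and 12 collections), where 0.0208% of all 14439 genes did (0.00693% higher and 0.0139% lower), 3 in number, and 1455 had an unadjusted p under 0.05. The summed IMC markers had a median of 75482 CPM in Slc26a4-/- and 45987 CPM in Slc26a4+/+ IMC-like cells, and their part in the members' values was not tested. For Slc26a4+/- against Slc26a4+/+ in IMC-like cells (3 and 12 collections), 0% of 14439 genes passed, with 1450 at an unadjusted p under 0.05, and for Slc26a4-/- in RC-like cells (3 and 3 collections) 0% of 13063 passed, with 524. DESeq2 called 796, 494 and 374 genes in these comparisons, and no member was among the genes called by any alternative. The median log2 difference over all genes was 0.54, 0.33 and 0.32 in these 3 fits, and the members' values are to be read against it.

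Atp1b1 was lower in Slc26a4-/- IMC-like cells by pooled means, at 7770.2 CPM ± 2661 (2401 to 15081, median 7643, 28 cells) against 12745 CPM in Slc26a4+/+, a log2 ratio of -0.71. The 2 groups of cells overlapped. Within run date 2 the means were 6281 CPM (17 cells) and 8588 CPM (4 cells), and within run date 4 they were 10072 CPM (11 cells) and 12581 CPM (7 cells). Both genotypes were thus lower on run date 2. The test over collections gave a log2 difference of 0.01 (SE 0.15, edgeR adjusted p = 1), below the median of 0.54 over all genes of this fit. Alternatives gave -0.30 to 0.04, and none passed. Slc26a4+/- IMC-like cells, all of run date 4, stood at 10153 CPM ± 2860.5 (20 cells). On that run date Slc26a4-/- cells stood close to this, at 10072 CPM, and Slc26a4+/+ cells at 12581 CPM. For Slc26a4+/- the test gave -0.05 (SE 0.17, edgeR adjusted p = 1).

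Atp1b3 stood at 3381 CPM ± 1286 in 28 Slc26a4-/- and 2862 CPM ± 1269 in 20 Slc26a4+/- IMC-like cells, beside 3020.4 CPM in Slc26a4+/+. For Slc26a4-/- against Slc26a4+/+ the means were 3592 against 3533 CPM on run date 2 and 3054 against 3285 CPM on run date 4. Its difference for Slc26a4-/- was 0.34 (SE 0.24, adjusted p = 0.712). Atp1b3 made up 33.4% of the beta TPM of Slc26a4-/- IMC-like cells, against 22.1% in Slc26a4+/+, with 38.04% against 31.3% on run date 2 and 27.6% against 24.9% on run date 4.

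Summed FXYD TPM was 785 in Slc26a4-/- and 2353 in Slc26a4+/+ IMC-like cells, and Fxyd3 held most of this difference. Fxyd1 stood at 77.1 CPM ± 72.9 (0 to 244.7, median 62.3) in Slc26a4-/-, at 153.6 CPM ± 91.8 in Slc26a4+/- and at 155.1 CPM in Slc26a4+/+ IMC-like cells. Its mean was lower in Slc26a4-/- on run date 2 (71.9 against 114.2 CPM) and on run date 4 (85.02 against 188.9 CPM), and the collection means overlapped (13.7 to 129.01 over 7 and 79.2 to 241.02 over 12). The test gave -0.50 (SE 0.79, adjusted p = 0.942). Fxyd2 did not keep its direction, with 50.2 against 119.5 CPM pooled, 75.6 against 37.6 CPM on run date 2 and 10.96 against 81.4 CPM on run date 4, and a difference of -1.41 (SE 1.48, adjusted p = 0.857).

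Fxyd3, which is no member, codes for the regulator also called Mat-8. Its collection means ranged from 191.5 to 509.9 CPM over 12 Slc26a4+/+ and from 0 to 108.9 CPM over 7 Slc26a4-/- IMC-like collections and did not overlap, as was so in this direction for 0.0831% of the 14439 genes tested. The log2 ratio of means was -2.94 on run date 2 and -2.86 on run date 4. The test gave -2.59 (SE 0.85, unadjusted p = 0.00530, adjusted p = 0.413), which did not pass. The median ratio of FXYD to beta TPM was 0.0890 in Slc26a4-/- IMC-like cells, against 0.175 in Slc26a4+/- and 0.227 in Slc26a4+/+ cells. Within run date 2 it was 0.0894 against 0.214, and within run date 4 it was 0.0650 against 0.284. Over collections it ranged from 0.0387 to 0.256 in Slc26a4-/- and from 0.114 to 0.399 in Slc26a4+/+ cells, which overlap. This ratio was not tested, as it sums genes chosen with earlier results known. The pair of Atp1b1 with Fxyd3 led in 2 of 28 Slc26a4-/- IMC-like cells (7.14%), the pair of Atp1b1 with Fxyd1 in 15 (53.6%, 33.9 to 72.5), and 3 had no FXYD gene with 10 or more counts.

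**Figure D4:**
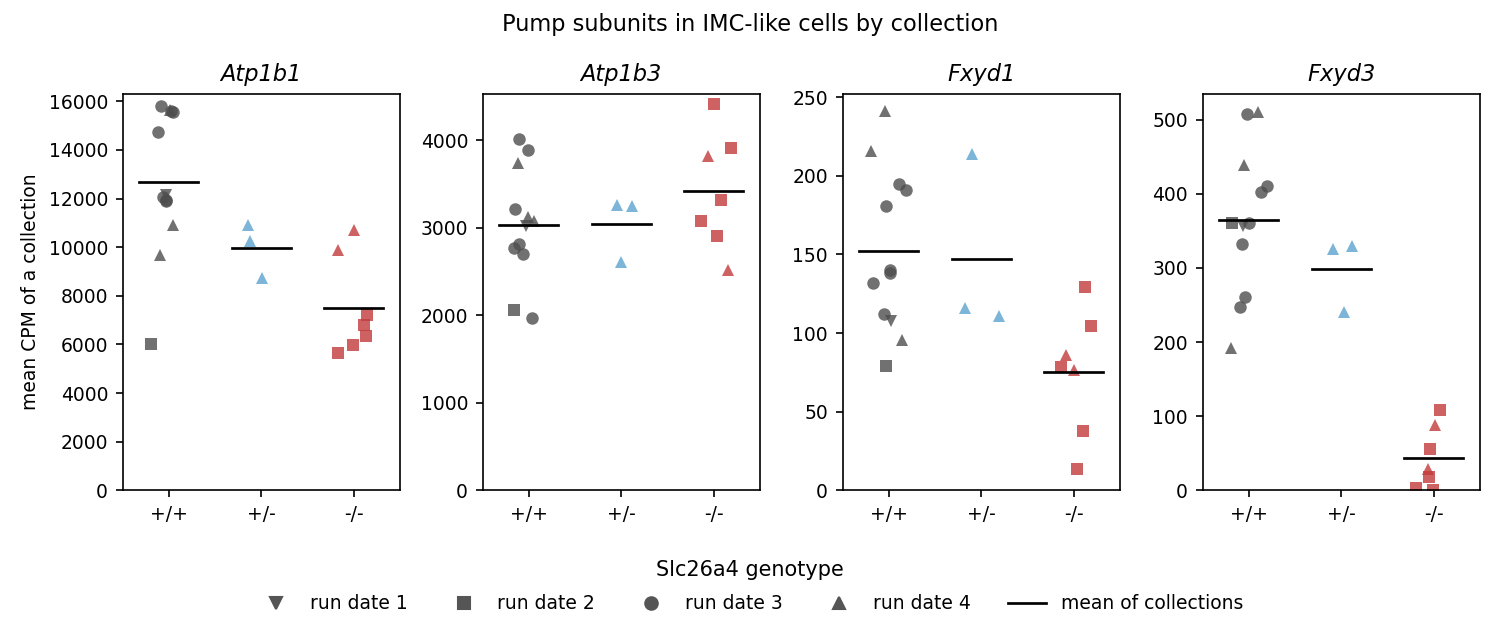
Mean CPM of Atp1b1, Atp1b3, Fxyd1 and Fxyd3 in IMC-like cells, 1 point per collection of at least 2 cells, by Slc26a4 genotype (12, 3 and 7 collections), with the run date as the shape of the point and bars at the mean of collections. The 5 Slc26a4-/- collections of run date 2 lie between 5629 and 7208 CPM for Atp1b1, around the 1 Slc26a4+/+ collection of that date shown, at 6030.4 CPM. With the collections of 1 cell, which are not shown, the mean over the 4 Slc26a4+/+ cells of that date was 8588 CPM. The Fxyd3 values of Slc26a4-/- collections (up to 108.9 CPM) lie under all Slc26a4+/+ collections shown.

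Atp1b2 was low in IMC-like cells of every genotype, and pooled means and means within run dates pointed in opposite directions. Pooled means were 90.7 CPM in Slc26a4-/- and 175.7 CPM in Slc26a4+/+ cells, whereas Slc26a4-/- cells had the higher mean on both run dates that held both genotypes, with 73.5 against 1.26 CPM on run date 2 and 117.3 against 64.2 CPM on run date 4. The test, which has run date as a term, gave 3.07 (SE 1.52, adjusted p = 0.499). Fxyd6 (4.86 against 11.7 CPM pooled, 4.99 against 0.789 CPM on run date 2, 4.66 against 37.4 CPM on run date 4, difference -0.95, SE 3.37, adjusted p = 1) and Fxyd7 (at 0 in all 28 Slc26a4-/- IMC-like cells) were at the edge of detection there.

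In RC-like cells the pair of Atp1b1 and Fxyd6 led in each genotype. Atp1b1 with Fxyd6 led in 6 of 6 Slc26a4+/- and in 11 of 13 Slc26a4-/- RC-like cells. Fxyd6 stood at 3217 CPM ± 1509.6 (899 to 5451, median 3032) in Slc26a4+/- and at 4297 CPM ± 3106 (231.3 to 9700.3, median 3856) in Slc26a4-/- cells, against 2649 CPM in Slc26a4+/+. The Slc26a4-/- mean was higher on run date 4 (5059 against 3637 CPM, 7 and 5 cells) and on run date 2 (3409 CPM in 6 cells against 2355 CPM in 1 cell). The difference over collections was 0.64 (SE 0.65, edgeR adjusted p = 1).

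Fxyd1 was lower in Slc26a4-/- RC-like cells, at 64.2 CPM ± 107.1 (0 to 348, median 8.10) against 233.8 CPM, at 51.4 against 319 CPM within run date 4 and at 79.1 against 122.7 CPM (1 cell) within run date 2. Slc26a4+/- RC-like cells, all 6 of run date 4, were also lower, at 99.6 against 319 CPM. The 3 Slc26a4-/- collections stood at 2.78, 126.1 and 173.1 CPM and the 3 Slc26a4+/+ collections at 206.6, 262.2 and 357 CPM, without overlap, as was so in this direction for 3.35% of the 13063 genes tested. With collections of 1 cell included, 4 of 11 Slc26a4+/+ and 3 of 4 Slc26a4+/- collections lay below the highest Slc26a4-/- collection. The test gave -1.28 (SE 1.65, adjusted p = 1). Fxyd6 made up 89.2% of FXYD TPM in Slc26a4-/-, 83.2% in Slc26a4+/- and 68.2% in Slc26a4+/+ RC-like cells. Atp1b1 (3246 against 2512 CPM, 0.58, SE 0.68, adjusted p = 1), Atp1b2 (197.6 against 658 CPM, -2.02, SE 1.46, adjusted p = 0.968) and Atp1b3 (318 against 200.2 CPM, 0.84, SE 1.35, adjusted p = 1) did not pass either. Within run date 4 the means were 2682 against 3250.3 CPM for Atp1b1, 63.4 against 401 CPM for Atp1b2 and 256.3 against 199.4 CPM for Atp1b3. Within run date 2, where 1 Slc26a4+/+ cell stood beside 6 Slc26a4-/- cells, they were 3904 against 3710.0, 354 against 4.04 and 390.4 against 476 CPM, so the direction turned between run dates for each of these 3 genes.

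All 9 Slc26a4-/- SC-like cells were of run date 2, where only 2 Slc26a4+/+ SC-like cells stood beside them, and too few collections held 2 of them for the test used above. Atp1b2 stood at 2247 CPM ± 1884 (58.1 to 5209.7, median 1793) in Slc26a4-/- and at 1027 CPM in Slc26a4+/+ SC-like cells, and at 507 CPM in the 2 of run date 2. It made up 50.2% of the beta TPM of these cells, against 29.5% in Slc26a4+/+. Fxyd6 stood at 692 CPM ± 1310.3 (0 to 4133, median 286.8) against 262.7 CPM, but the mean of the 8 cells other than the one at 4133 CPM was 262.03 CPM. Fxyd1 stood at 70.9 CPM ± 77.9 (0 to 206.98, median 26.7) against 182.6 CPM. Both groups overlapped for each of these genes. A fit over collections of 1 cell or more, added after seeing the data (3 and 12 collections), called 0 of the 6 members tested, where 0.0180% of 11118 genes passed and 980 had an unadjusted p under 0.05. It gave 2.54 for Atp1b2 (SE 1.48, edgeR adjusted p = 0.387), -1.67 for Fxyd1 (SE 2.43, adjusted p = 0.729) and 2.51 for Fxyd6 (adjusted p = 0.457), the last of which was -0.18 without 1 Slc26a4-/- collection. The median log2 difference over all genes of this fit was 3.41. The values of Atp1b2 and Fxyd6 thus lay below that of the middle gene and do not show a rise of their own. The leading pair was Atp1b2 with Fxyd6 in 3 of 9 Slc26a4-/- SC-like cells, a pair that led in none of the 23 Slc26a4+/+ cells, where Atp1b1 with Fxyd1 led in 14. The MC markers of these cells (2921 to 14711 CPM, median 5053) ranged as in Slc26a4+/+ SC-like cells, while their SC markers were lower (median 9107 against 42434 CPM), and the part of either in the Atp1b2 level was not tested.

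Atp1b2 was also the leading beta subunit of Slc26a4-/- MC-like cells. In the 5 Slc26a4-/- MC-like cells Atp1b2 stood at 8103, 11275, 13284, 13952 and 17135 CPM, within the range of the 14 Slc26a4+/+ cells, and made up 92.7% of beta TPM. Fxyd1 was at 0.538 CPM or less in each of them. Fxyd2 was at 355 and 619 CPM in 2 of them and at 0 in the others. Fxyd6 stood at 0.285, 2.08, 2.15, 196.1 and 2421 CPM. The same kind of fit over collections of 1 cell or more (4 and 8) called 0 of the 6 members tested, where 0.0400% of 10007 genes passed and 603 had an unadjusted p under 0.05. The difference of Atp1b2 was 0.07 (SE 0.33, edgeR adjusted p = 1), and -0.56 to 0.48 with 1 Slc26a4-/- collection left out. Slc26a4+/- mice gave only 2 SC-like and 2 MC-like cells, which are not described.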

How the data were processed

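Of 281 cells profiled by Smart-Seq2 from the stria vascularis, the authors deposited a gene table of estimated counts and, for each cell, transcript files with estimated counts and TPM, made with kallisto on mm10 (GRCm38). The kallisto version is not given in the sources used here. The gene table held 298 columns, of which 17 belong to no sample described here and were left out. From these files, CPM was computed per cell from the estimated counts, and TPM was summed per gene over 98492 transcripts with GENCODE M21, where 1376 transcripts with a median of 0.691% of counts had no gene. No 2 cells had identical counts. Some genes of the pump list are not reported here. The members and gene lists were chosen with earlier results of these data known.

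Cells were clustered in Seurat 5.3.0 (R 4.3.3) on 2000 variable genes and 10 principal components at resolution 0.8, without 538 gene IDs that include the pump genes. A name needed 3 detected markers and a share of 80% of the cluster's cells with that list as their highest score. In addition, no other list could have more markers than the type's own among the genes leading the cluster. Slc26a4 is itself 1 of the 6 RC markers. Cells were picked under a microscope, and no doublet caller was run. All cells were used in the main results. A gene was detected at a count of 1 and a log2 ratio of means had a pseudocount of 1 CPM.

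Genotypes were tested on counts summed per collection and cell type and rounded, with at least 2 cells per collection and at least 3 collections per genotype, with edgeR 4.0.16 (TMM, filterByExpr, quasi-likelihood, run date as covariate, adjusted p threshold 0.05). The fit was run on simulated IMC-like data, where it missed nearly all changed genes drawn from all genes tested. It missed fewer among highly expressed genes with large changes. A gene that did not pass is therefore not shown to be unchanged. Likeness was Pearson's r over genes with 10 or more counts in 20% of cells, and the 3 genes most like each member were named. Alternatives used DESeq2 1.42.0 and limma 3.58.1, a filter on cells (100000 counts, 2500 genes, under 3% mitochondrial counts), a pseudocount of 10 CPM, resolution 1.2, other units and weights, and run dates and collections left out. Intervals are exact binomial at 95%. Python 3.11.15, pandas 2.3.3, scipy 1.17.1 and matplotlib 3.10.9 were used.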

Additional observations from a re-analysis of the deposited data

Results flagged for a closer look

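The ratio of Atp1b2 in Slc26a4-/- over Slc26a4+/+ cells pointed in opposite directions in different cell types. Only collections with at least 2 cells of a type were used. All such Slc26a4-/- collections of one type lay on the other side of the Slc26a4+/+ mean from all those of the other. Between IMC-like and SC-like cells the log2 ratios differed by -2.24: the 7 IMC-like Slc26a4-/- collections ranged from 2.03 to 137.1 CPM against a Slc26a4+/+ mean of 175.7 CPM, and the 2 SC-like ones from 1777 to 2850.2 CPM against 1027 CPM. Between SC-like and RC-like cells they differed by 2.80, with 3 RC-like collections at 15.9 to 439 CPM against 658 CPM. Neither difference was tested. Within run dates the IMC-like ratio was positive (5.04 on run date 2 and 0.86 on run date 4), and without the RC-like cell highest in MC markers the Slc26a4+/+ mean of RC-like cells was 262.98 CPM, which lies inside the range of the Slc26a4-/- collections. Of 12 groups of 4 to 10 collections of a member, 0 held a collection far from the others.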

How the results depend on the processing

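Of 1078 values recomputed under an alternative, 793 stayed near the main value or on the same side of the threshold, 11 changed direction, 6 newly passed the threshold and the rest moved. Of these 793, 544 were tests of pump genes over collections, where a change of sign was not counted. For example, the difference of Atp1b1 in Slc26a4-/- RC-like cells ranged from -0.52 to 1.12 over the alternatives. Most values that moved were genotype ratios of members, of which 61 of 308 stayed. The cause was not tested unless stated.

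The number of genes called depended on the tool. For Slc26a4-/- against Slc26a4+/+ in IMC-like cells it was 3 in the main result, 796 with DESeq2, 42 with limma-trend, 12 without TMM factors, 14 without a filter on low counts, 5 on run dates with both genotypes, and 2 to 11 with 1 collection left out, the 11 without one Slc26a4-/- collection of run date 2. DESeq2 called 494 genes for Slc26a4+/- in IMC-like cells. For RC-like cells the count was 0 in the main result, 374 with DESeq2, 15 without TMM factors, 2 on run dates with both genotypes, and 0 to 1 with 1 collection left out. No member passed under any of these. In the added fits over collections of 1 cell or more, 2 genes were called in SC-like cells (2 to 3 with 1 collection left out) and 4 in MC-like cells (1 to 4). For Slc26a4-/- IMC-like cells, Nkain1 and Nkain4 passed in 1 alternative each (adjusted p = 0.0477 and 0.0256).

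For members at similar means in 2 types the order turned. The log2 level of Fxyd2 in IMC-like over the next type was -0.12 with collections weighted equally and -0.58 without run date 3, that of Fxyd1 in RC-like cells was -0.09 without run date 4, and that of Fxyd7 in RC-like cells was -1.68 with types from the marker score and -1.14 without run date 1. For Slc26a4-/- over Slc26a4+/+, run date 2 alone gave 0.99 for Fxyd2 and 1.74 for Fxyd6 in IMC-like cells and -2.29 for Fxyd6 in MC-like cells. Atp1b1 (-0.45) and Fxyd1 (-0.66) stayed lower in IMC-like cells on that run date. Fxyd6 in Slc26a4-/- SC-like cells, at 1.39, stood at 0.00 without its highest cell. Fxyd7 in Slc26a4+/- IMC-like cells stood at 0.17 on run date 4 alone and on run dates 2 and 4.

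With types from the marker score, Atp1b1 made up 71.8% of beta TPM in IMC-like, Atp1b2 90.03% in MC-like, Fxyd1 35.5% of FXYD TPM in SC-like and Fxyd2 14.95% in MC-like cells. With CPM, which is not per length, Fxyd1 made up 31.3% in SC-like and Fxyd6 90.8% in RC-like cells. The median share of Fxyd2 over MC-like cells was 0%, and Atp1b2 made up 93.6% in MC-like cells without run date 3. No paired analysis was possible because no cells of different genotypes share a replicate number in the labels. MC-like cells had a median of 1624722 counts, between those of the other named types (1327892 to 1711790). Depth limits 20 cells under 100000 counts, 17 of them in unnamed clusters.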

Other observations

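The beta subunits of the 2 unnamed clusters differed. In the 11 Slc26a4+/+ cells of the cluster led by Crhbp, Slc26a7 and Vmo1, Atp1b2 was the leading beta subunit, at 1822 CPM ± 1747 (171.7 to 6340.1, median 1380.4) and 63.1% of beta TPM, while Atp1b1 stood at 584 CPM ± 442. Fxyd1 made up 50.5% of FXYD TPM in these cells, Fxyd3 26.8% and Fxyd6 20.9%, and the median FXYD to beta TPM ratio was 1.07. In the 68 Slc26a4+/+ cells of the cluster led by Slc4a1 and Camp, Atp1b1 stood at 5566 CPM ± 5556 (0 to 21327, median 4455), Atp1b3 at 2443 CPM ± 2235 and Atp1b2 at 220.2 CPM ± 376. Atp1b1 made up 64.9% of beta TPM there, Atp1b3 32.3% and Atp1b2 2.81%, the same order as in IMC-like cells. IMC markers gave the largest marker sum in 58 of the 86 cells of this cluster, and at a clustering resolution of 1.2 a cluster of 46 cells beside one of 82 took the name IMC-like.

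The transcripts behind a gene's level differed between members. A coding transcript of 2580 bases held 98.4% of the counts of Atp1b1 in IMC-like cells. In MC-like cells a coding transcript of 2842 bases held 66% of the counts of Atp1b2 and 46.8% of its TPM, while a processed transcript of 711 bases held 9.52% of the counts and 39.4% of the TPM. Shares of the beta family by TPM therefore include a transcript that is not annotated as coding. For Fxyd1, 1 coding transcript held 68.1% of counts in IMC-like and 92.8% in RC-like cells.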
